A study of Mus musculus with 2 samples.

Results

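Collagens are the triple-helical proteins of the extracellular matrix, and 42 of the 21018 genes listed in both deposited count tables encode one of their chains. The members were every gene whose symbol reads Col, a number, a and a number with nothing after. Their levels were followed through stroma, perivascular, endothelial, granulosa, surface and germ cells of the newborn mouse ovary. The tissue came from C57BL pups whose mothers were dosed from E16.5 to postnatal day 3. The group labelled MLT received melatonin together with the DMSO vehicle, and the group labelled DEHP_MLT received melatonin together with DEHP, a phthalate plasticiser, by oral gavage. Melatonin was common to both groups, each group was 1 single-cell library, and the number of pups behind each is not stated. The series asks whether melatonin relieves maternal DEHP exposure, and libraries without melatonin were not analysed here.

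A collagen molecule is built from 3 chains, which can be copies of 1 gene product or the products of several genes. Fibrillar collagens form the cables of connective tissue, type IV collagens form the sheet of the basement membrane, and type VI collagens form beaded filaments around cells and fibrils. FACIT collagens sit on the surface of fibrils, and multiplexins such as types XV and XVIII lie in or next to basement membranes. In the perinatal ovary, follicles form as granulosa cells enclose single oocytes, and each follicle is separated from the stroma by a basement membrane.

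The MLT library held 80657690 UMIs in 5277 barcodes and the DEHP_MLT library 117355739 UMIs in 4819 barcodes, with medians of 10834 and 13161 UMIs per barcode; 4 barcodes occurred in both. A UMI is 1 captured transcript end, so levels do not scale with transcript length, and every level here is in UMIs per 10,000 UMIs of a cell class. The sample titles were followed, but the names of the 2 deposited tables carry the opposite groups. Every library comparison below is therefore between the library labelled MLT and the library labelled DEHP_MLT, and its direction reverses if the titles are wrong. With 1 library per group no difference was tested, and the 95% intervals are exact Poisson intervals that cover counting error only. Cell classes came from clusters built without collagen genes and named from other markers. The numbers of cells in the MLT and DEHP_MLT libraries were 2676 and 2133 for stroma, 247 and 160 for perivascular cells, 181 and 103 for endothelium, 811 and 429 for granulosa, 239 and 321 for surface and 201 and 468 for germ cells. The classes held their defining markers: Cdh5 was at 7.18 and 6.01 in endothelium and at 0.0779 and 0.0374 in stroma, Upk3b at 6.59 and 5.46 in surface cells, and Dazl at 4.58 and 4.83 in germ cells. Surface cells also carried 14.2 and 12.7 of the 7 granulosa markers summed, against 38.4 and 39.9 in granulosa cells, and 13.5 and 16.9 of the epithelial pregranulosa markers Lgr5 and Gng13, against 2.70 and 2.96 in granulosa cells; the part of such cells in the surface results was not tested. The summed level of the 7 erythroid markers in stroma was 7.13 in MLT and 95.1 in DEHP_MLT; the part of free red cell RNA in the results was not tested.

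All collagens together made up 102 of every 10,000 UMIs of stroma in MLT and 103 in DEHP_MLT. Perivascular cells held 85.7 and 76.3, endothelium 45.4 and 43.0, surface cells 25.2 and 21.9 and granulosa cells 23.6 and 22.2. Germ cells were lowest, at 5.37 and 3.50. The order of the first 3 classes was the same in both libraries, while surface and granulosa cells lay close together and changed places. Red blood cell precursors, which should make no collagen, still carried 21.3 and 12.3, and immune cells 5.38 and 13.1. These 2 classes are used below as a rough background for free RNA of other cells. As a share of UMIs, germ cells as a whole lay at or below both in each library. Median UMIs per cell were 10844 and 74940 in germ cells, 12338 and 10106 in erythroid cells and 7919 and 10858 in immune cells. Collagen UMIs in all were 4325 and 11446 in germ cells, 1017 and 10401 in erythroid cells and 959 and 1519 in immune cells. The part of cell depth in this order was not tested. The erythroid class held 35 MLT and 673 DEHP_MLT cells, and the immune class 188 and 98. The 7 erythroid markers made up 7290 and 3910 of every 10,000 erythroid UMIs, which lowers the share left for other genes. The free RNA level within the other classes was not measured.

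**Figure D1:**
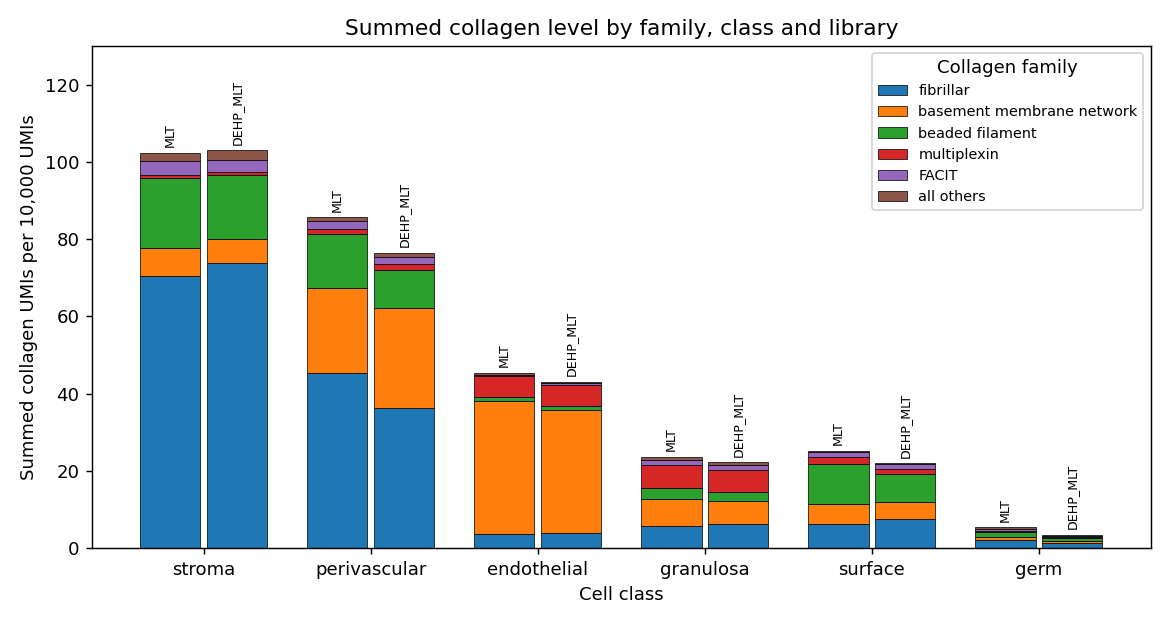
Summed collagen UMIs per 10,000 UMIs (y axis, from 0) in each cell class (x axis), with the MLT library left and the DEHP_MLT library right of each pair and colours for collagen families. Stroma reached 102 and 103, mostly fibrillar collagens, while the basement membrane network made up 34.4 of 45.4 in MLT endothelium.

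Of the 42 collagens, 32 reached 0.1 per 10,000 UMIs in at least 1 class of each library. Of these 32, 30 had their highest level in the same class in both libraries, against 80.0% of the 11313 genes that reached the same minimum. Stroma was that class for 18 collagens, whereas 8.14% of all genes were highest there. Endothelium was highest for 3 (background 11.4%), granulosa for 3 (11.0%), perivascular cells for 2 (7.01%), surface cells for 2 (7.68%) and germ cells for 2 (34.8%). The exceptions were Col6a3, highest in perivascular cells in MLT and in stroma in DEHP_MLT, and Col27a1, highest in perivascular cells in MLT and in granulosa cells in DEHP_MLT. The 10 collagens under the minimum included Col2a1, the collagen of cartilage, which did not exceed 0.00368 in any of the 6 classes. Col13a1, a transmembrane collagen, came closest, at 0.0986 and 0.105 in stroma.

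**Figure D2:**
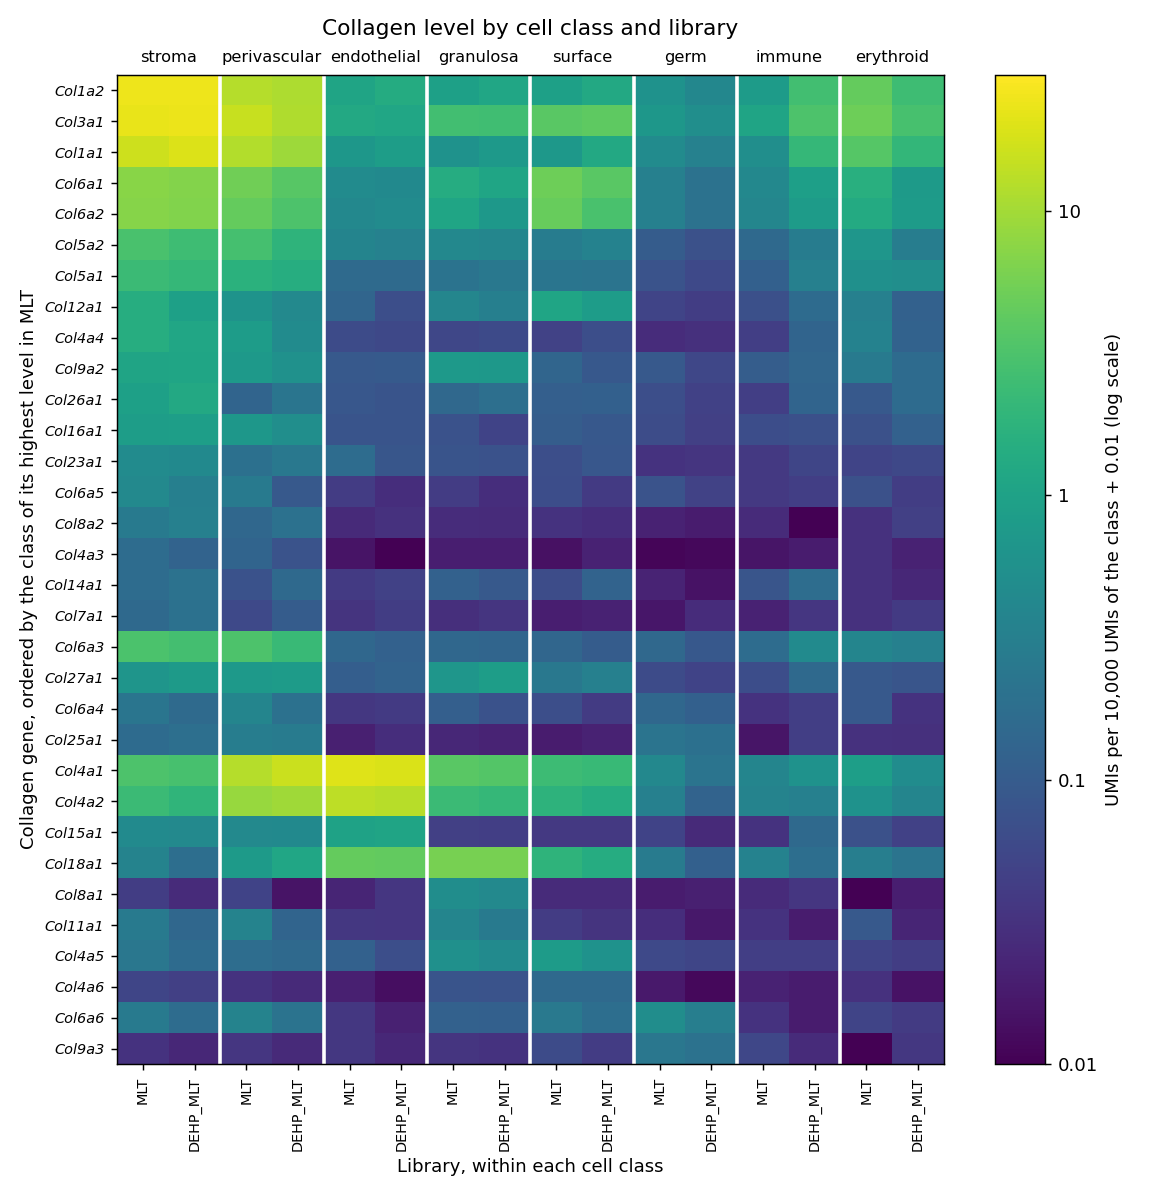
Levels of the 32 collagens past the minimum (rows) in each cell class and library (columns), as UMIs per 10,000 with 0.01 added on a log colour scale; immune and erythroid cells are shown as classes that should lack collagen. Fibrillar collagens other than Col11a1 and Col27a1 were brightest in stroma, Col4a1 and Col4a2 in endothelium, and Col18a1 in granulosa cells and endothelium.

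The fibrillar collagens made up 70.4 and 73.8 per 10,000 in stroma and 45.3 and 36.2 in perivascular cells. Col1a2, which encodes a chain of type I collagen, was the most abundant collagen of stroma at 24.5 (95% interval 24.3 to 24.7) in MLT and 24.7 (24.5 to 24.8) in DEHP_MLT. Col3a1, the chain of type III collagen, followed at 23.3 and 24. Col1a1, the other chain of type I collagen, stood at 16.3 and 19.5. These 3 genes were 23.9%, 22.8% and 15.9% of the collagen UMIs of MLT stroma. After every cell was thinned to 2000 UMIs, 97.4% of MLT and 96.7% of DEHP_MLT stroma cells had a Col1a2 UMI, against 17.1% and 13.8% of erythroid cells. Outside stroma and perivascular cells type I collagen did not stand above the erythroid level as a share of UMIs. Before thinning, 69.5% and 61.8% of granulosa cells had a Col1a2 UMI, against 54.3% and 41.6% of erythroid cells. After thinning the granulosa shares were 15.2% and 16.1%, and the part of cell depth was not tested. Col1a2 was at 0.924 to 1.38 in endothelium, granulosa and surface cells and at 4.56 and 2.52 in erythroid cells. Immune cells held Col1a2 at 0.808 (0.681 to 0.951) and 2.67 (2.38 to 2.98). In MLT they held Col1a1 at 0.516 (0.416 to 0.633), below the 0.696 (0.636 to 0.760) of surface cells.

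Col3a1 followed another pattern in epithelial cells. Per UMI of Col1a2, stroma held 0.951 UMIs of Col3a1 in MLT and 0.974 in DEHP_MLT, and erythroid cells 1.14 and 1.16. The same ratio was 4.19 (3.85 to 4.57) and 3.32 (3.11 to 3.55) in surface cells, and 2.87 and 2.22 in granulosa cells. This ratio lay above that of stroma, of erythroid cells and of immune cells (1.33 and 1.19) in both libraries. Its Col1a2 part was below the erythroid level. Col3a1 itself was at 3.87 and 4.13 in surface cells and 2.67 and 2.54 in granulosa cells, beside 5.19 and 2.92 in erythroid cells, so only surface cells of DEHP_MLT exceeded the erythroid level. Thinned to 2000 UMIs, 45.2% (38.8 to 51.7) and 42.1% (36.6 to 47.7) of surface cells had a Col3a1 UMI. Among erythroid cells 28.6% (14.6 to 46.3) and 20.2% (17.2 to 23.4) had one, and the MLT intervals of surface and erythroid cells overlapped. Among immune cells 21.8% (16.1 to 28.4) and 22.4% (14.6 to 32.0) had one, with intervals apart from those of surface cells in both libraries.

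The minor fibrillar collagens that join type I fibrils were also stromal. Col5a2, a chain of type V collagen, was at 2.97 and 2.50 in stroma and 2.86 and 1.81 in perivascular cells, and its partner Col5a1 at 2.34 and 2.06 in stroma. Neither exceeded 0.410 in endothelium, granulosa, surface or germ cells. Col27a1 differed from these, with similar levels in stroma (0.641 and 0.787), perivascular cells (0.725 and 0.789) and granulosa cells (0.654 and 0.842). Col11a1, a type XI chain known from cartilage, was low throughout, with its highest level in granulosa cells at 0.367 and 0.250.

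Type VI collagen is assembled from Col6a1, Col6a2 and the third and longer chain, for which Col6a3 is the usual gene and Col6a4, Col6a5 and Col6a6 are alternatives. In stroma the 3 main chains were present together: Col6a1 at 7.12 and 6.79, Col6a2 at 7.02 and 6.53, and Col6a3 at 3.09 and 2.72. Perivascular cells held 5.35 and 3.69 of Col6a1 and 3.23 and 2.28 of Col6a3. Surface cells held Col6a1 at 5.06 and 3.87 and Col6a2 at 4.72 and 2.96, but Col6a3 at only 0.131 (0.106 to 0.160) and 0.0914 (0.0732 to 0.113). That Col6a3 level was below the 0.377 and 0.314 of erythroid cells, so it did not stand above background.

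The ratio of Col6a3 to Col6a2 UMIs sets these classes apart. It was 0.441 (0.430 to 0.452) in MLT stroma and 0.417 (0.406 to 0.428) in DEHP_MLT stroma, and 0.704 and 0.709 in perivascular cells. In surface cells it was 0.0277 (0.0224 to 0.0340) and 0.0309 (0.0247 to 0.0382). Erythroid cells, at 0.286 and 0.398, were close to stroma, and granulosa cells at 0.121 and 0.179 lay between. The ratio of Col6a1 to Col6a2 moved far less over the 6 classes, from 0.930 to 1.57. Thinned to 2000 UMIs, 59.0% and 51.7% of surface cells had a Col6a1 UMI and 2.51% and 2.18% a Col6a3 UMI, beside 11.4% and 7.88% of erythroid cells for Col6a1 and 5.71% and 4.01% for Col6a3. The alternative long chains did not make up the difference in UMIs: in surface cells Col6a4 was at 0.0585 and 0.0305, Col6a5 at 0.0557 and 0.0284 and Col6a6 at 0.241 and 0.169.

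**Figure D3:**
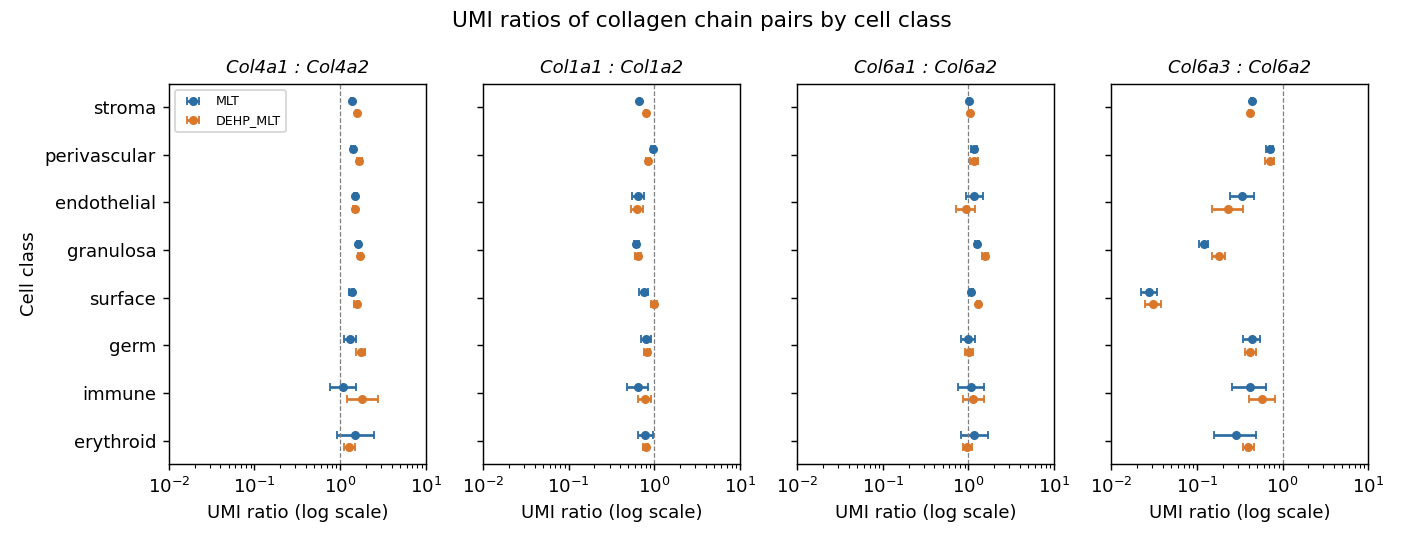
Ratio of UMIs of 2 chains (x axis, log scale, with 95% intervals for counting error) in each cell class (y axis) for the MLT and DEHP_MLT libraries. Col6a3 to Col6a2 dropped to 0.0277 and 0.0309 in surface cells, whereas Col4a1 to Col4a2 stayed between 1.30 and 1.75 in the 6 classes.

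The start regions of the 3 type VI genes are shown because surface cells held RNA of 2 of them without the third. The windows run from 250 bases before to 50 bases after the start, from RefSeq on GRCm38.p6, and are given 5′ to 3′ on the gene's strand, which is the minus strand for all 3. Col6a1 is at chr10:76725995-76726294, Col6a2 at chr10:76623355-76623654 (the first of 2 starts listed) and Col6a3 at chr1:90843922-90844221. Capitals mark the GC box GGGCGG, the CCAAT box CCAAT and the TATA box TATAAA on either strand.
Col6a1: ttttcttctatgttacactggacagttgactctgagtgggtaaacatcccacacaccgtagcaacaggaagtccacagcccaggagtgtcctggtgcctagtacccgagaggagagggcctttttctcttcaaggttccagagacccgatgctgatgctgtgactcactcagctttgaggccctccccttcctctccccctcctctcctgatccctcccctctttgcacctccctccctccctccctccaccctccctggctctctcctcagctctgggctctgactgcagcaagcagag
Col6a2: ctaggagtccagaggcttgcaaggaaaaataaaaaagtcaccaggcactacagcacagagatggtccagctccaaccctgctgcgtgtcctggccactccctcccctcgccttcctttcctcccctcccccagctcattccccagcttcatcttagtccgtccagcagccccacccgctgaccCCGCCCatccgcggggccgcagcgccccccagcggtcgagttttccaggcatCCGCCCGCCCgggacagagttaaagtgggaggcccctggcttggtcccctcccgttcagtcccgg
Col6a3: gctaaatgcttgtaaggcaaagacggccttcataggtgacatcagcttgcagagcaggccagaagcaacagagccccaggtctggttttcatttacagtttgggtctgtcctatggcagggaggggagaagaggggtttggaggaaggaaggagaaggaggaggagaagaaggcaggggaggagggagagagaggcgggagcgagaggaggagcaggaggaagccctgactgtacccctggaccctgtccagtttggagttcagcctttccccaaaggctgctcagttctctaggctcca
Col6a2 held 3 GC boxes, of which 2 overlap, and Col6a1 and Col6a3 held none of the 3 motifs in this window. Of all 32851 windows of this length, 35.7% held a GC box, 37.4% a CCAAT box and 13.6% a TATA box.

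Type IV collagen, the sheet-forming collagen of basement membranes, was led by Col4a1 and Col4a2 in every class. Among the 6 classes, endothelium was highest, with Col4a1 at 20.6 (20.1 to 21) and 18.9 (18.4 to 19.5) and Col4a2 at 13.6 and 12.8. Perivascular cells followed with Col4a1 at 12.2 and 15.9, although their pericyte cluster on its own exceeded endothelium. Granulosa cells held 3.87 and 3.52, stroma 3.18 and 2.93 and surface cells 2.39 and 2.21, all above the 0.879 and 0.482 of erythroid cells. Germ cells, at 0.412 and 0.207, were below that background. Thinned to 2000 UMIs, 86.2% and 92.2% of endothelial cells had a Col4a1 UMI, against 5.71% and 6.54% of erythroid cells.

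The ratio of the 2 chains varied little beside their levels. Per UMI of Col4a2 there were 1.51 (1.46 to 1.56) and 1.48 (1.42 to 1.55) UMIs of Col4a1 in endothelium, 1.64 and 1.70 in granulosa cells and 1.38 (1.33 to 1.42) and 1.58 (1.53 to 1.64) in stroma. Over the 6 classes and both libraries this ratio ran from 1.30 to 1.75, while the level of Col4a1 ran from 0.207 to 20.6. In perivascular cells the ratio was 1.41 (1.34 to 1.49) in MLT and 1.68 (1.59 to 1.78) in DEHP_MLT. In germ cells it was 1.30 (1.10 to 1.53) and 1.75 (1.54 to 1.98). The libraries' intervals were apart in perivascular cells, germ cells and stroma. Immune cells, with few UMIs, gave 1.08 (0.754 to 1.55) and 1.81 (1.19 to 2.78).

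These 2 genes lie on opposite strands of chromosome 8 with starts that RefSeq places 21 bases apart, which is why their shared start region is shown. The Col4a1 window is chr8:11312777-11313076 on the minus strand and the Col4a2 window chr8:11312555-11312854 on the plus strand, both on GRCm38.p6. They overlap by 78 bases, so the last bases of each are the reverse complement of the other's. Capitals mark the same 3 motifs as above.
Col4a1: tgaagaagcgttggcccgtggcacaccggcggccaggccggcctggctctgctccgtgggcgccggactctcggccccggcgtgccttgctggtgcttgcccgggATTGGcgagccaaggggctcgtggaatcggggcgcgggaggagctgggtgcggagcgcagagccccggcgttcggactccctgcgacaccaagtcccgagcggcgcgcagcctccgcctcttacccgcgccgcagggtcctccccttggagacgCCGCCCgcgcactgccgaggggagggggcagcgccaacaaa
Col4a2: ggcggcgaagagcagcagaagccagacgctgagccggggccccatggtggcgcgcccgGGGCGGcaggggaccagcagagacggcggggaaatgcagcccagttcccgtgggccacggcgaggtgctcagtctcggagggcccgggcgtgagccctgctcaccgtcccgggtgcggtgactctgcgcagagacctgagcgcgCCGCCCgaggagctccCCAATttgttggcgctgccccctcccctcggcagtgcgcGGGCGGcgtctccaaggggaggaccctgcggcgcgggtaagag
The Col4a1 window held 1 GC box and 1 CCAAT box, and the Col4a2 window 3 GC boxes and 1 CCAAT box. Of the 42 collagens, 33 had a window in the table, and 23 of their 35 full-length windows held a GC box. A match to these letters is a description of the sequence and not a measured binding site.

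The other type IV chains were divided between cell classes. Col4a4, which with Col4a3 belongs to the network best known from the kidney filter, was stromal: 1.44 and 1.14 in stroma, 0.817 and 0.465 in perivascular cells, and at most 0.0588 in endothelium, granulosa, surface and germ cells. Its partner Col4a3 had only 0.113 and 0.105 UMIs per UMI of Col4a4 in stroma. Col4a5 was instead highest in surface cells at 0.793 and 0.587, then granulosa cells at 0.542 and 0.457. Its neighbour Col4a6, whose start lies 1343 bases away on the X chromosome and on the other strand, had the same order at lower levels, with 0.142 and 0.146 in surface cells and 0.0709 and 0.0676 in granulosa cells. Stroma as a whole held Col4a6 at 0.0434 and 0.035. Its Ntrk3-led cluster, described below, held 0.128 (0.086 to 0.185) and 0.173 (0.117 to 0.247), near the surface level. By class levels, Col4a4 and Col4a5 thus marked separate classes within 1 family.

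Col18a1, the type XVIII multiplexin of basement membranes, was highest in granulosa cells at 5.87 (5.77 to 5.97) and 5.76 (5.63 to 5.90). It was the most abundant collagen of granulosa cells in both libraries, although granulosa cells did not remain its highest class in both when cells were assigned by the per-cell marker gate. Endothelium held 4.47 and 4.44 and surface cells 1.79 and 1.42, whereas stroma held 0.347 and 0.170 and erythroid cells 0.293 and 0.205. Thinned to 2000 UMIs, 64.2% and 66.0% of granulosa cells had a Col18a1 UMI, compared with 5.71% and 3.57% of erythroid cells. The related Col15a1 was endothelial, at 0.996 and 1.05, and at 0.0359 and 0.0346 in granulosa cells.

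Several less abundant collagens, singled out after their values were seen, were also divided between classes. Col8a1 and Col8a2 encode the short-chain network of type VIII collagen. Col8a1 was at 0.504 and 0.428 in granulosa cells and 0.0329 and 0.0171 in stroma, while Col8a2 was at 0.0175 and 0.0169 in granulosa cells and 0.251 and 0.318 in stroma. The ratio of Col8a1 to Col8a2 was 28.8 (20.9 to 41.0) and 25.3 (16.4 to 41.2) in granulosa cells and 0.131 and 0.0540 in stroma. Col6a6 was highest in germ cells at 0.494 and 0.296, above the 0.0419 and 0.0307 of erythroid cells. With cells thinned to 2000 UMIs germ cells were no longer its highest class in both libraries.

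The FACIT collagens, which sit on other fibrils, were mostly stromal. Col9a2 was at 1.07 and 1.11 in stroma and 0.728 and 0.694 in granulosa cells, but 0.128 and 0.0799 in surface cells. Col9a3, a second chain of type IX collagen, was highest in germ cells at 0.232 and 0.196. Per UMI of Col9a2 there were 2.79 (2.10 to 3.75) and 4.36 (3.64 to 5.25) UMIs of Col9a3 in germ cells, but 0.0213 and 0.0132 in stroma. Col12a1 was at 1.48 and 0.925 in stroma and 1.11 and 0.829 in surface cells, while Col16a1 was at 0.857 and 0.883 in stroma and at most 0.0974 in surface cells.

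The stroma class joined 5 clusters that the libraries filled unequally. Cluster 2, led by Col4a4, held 1450 of the MLT cells and 82 of the DEHP_MLT cells, and cluster 7, led by the interferon-induced gene Iigp1, held 529 and 3. Cluster 1, led by Tcf21 and Htra3, held 33 and 1548. Clusters 0 and 6, led by Ntrk3 and by genes of dividing cells, were filled by both libraries, with 241 and 152 and with 423 and 348 cells.

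Cluster 0 stood out in collagen. All collagens summed to 141 and 145 per 10,000 there, compared with 89.6 and 99.0 in cluster 6 and 101 in both cluster 2 in MLT and cluster 1 in DEHP_MLT. Col3a1 was at 35.8 and 36.6 in cluster 0 and 20.9 and 23.6 in cluster 6. Col14a1, a FACIT collagen, was at 0.824 and 0.824 in cluster 0 and 0.0808 and 0.187 in cluster 6. Col4a4 was at 0.669 and 0.340 in cluster 0, 1.38 and 1.01 in cluster 6, and 1.91 in cluster 2 and 0.526 in cluster 7 in MLT. Cluster 7 thus held as little Col4a4 as cluster 0, although its Col3a1 was at 24.2 in MLT.

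The perivascular class joined smooth muscle cells, led by Actg2 and Myh11 (153 and 56 cells), and pericytes, led by Rgs5 (94 and 104 cells), and their collagens differed. Pericytes held Col4a1 at 31.8 (30.6 to 33) and 25 (24.1 to 25.9), more than endothelium, and smooth muscle cells held 2.36 and 1.82. Col3a1 was at 5.65 and 5.23 in pericytes and 20.3 and 21.5 in smooth muscle cells. All collagens summed to 85.2 in pericytes and 85.9 in smooth muscle cells in MLT, but to 69.1 (67.6 to 70.6) and 87.5 (85.4 to 89.7) in DEHP_MLT. Col4a1 was lower in DEHP_MLT in each of these clusters but higher in DEHP_MLT in the joined class (12.2 and 15.9), in which pericytes were 94 of 247 cells in MLT and 104 of 160 in DEHP_MLT.

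**Figure D4:**
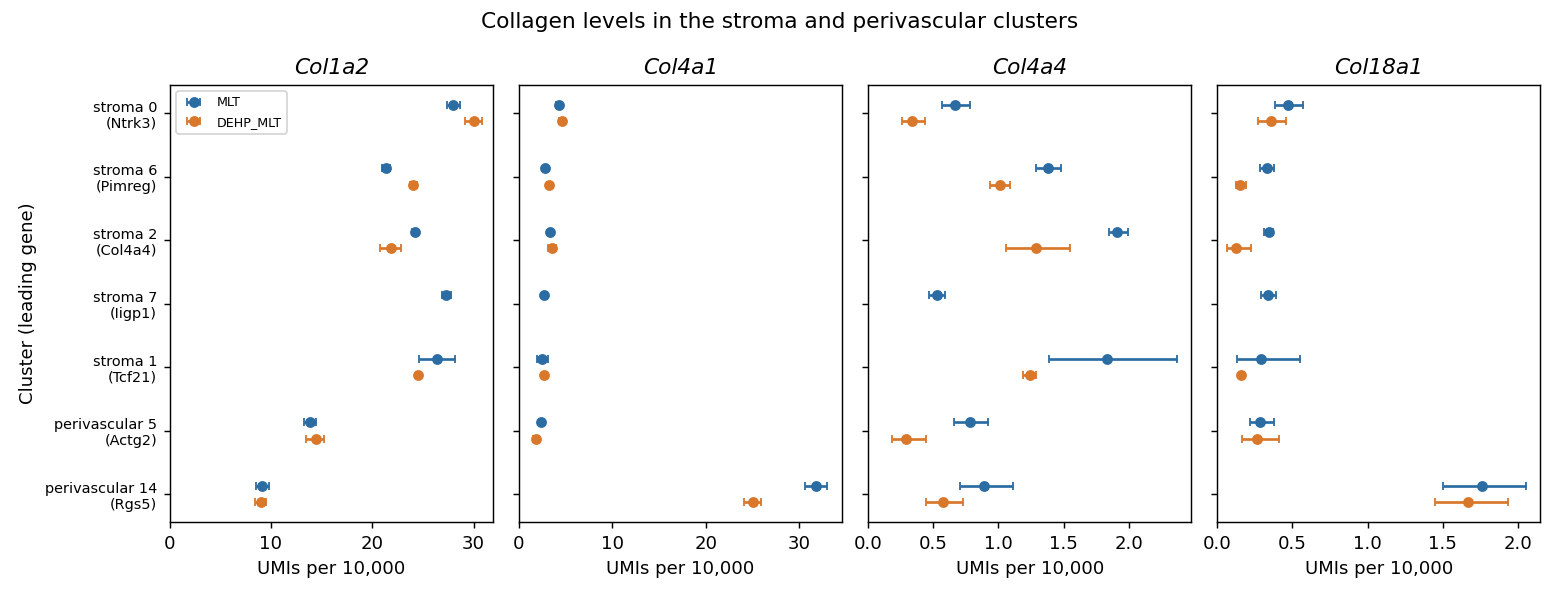
Levels of 4 collagens in UMIs per 10,000 (x axis, from 0, with 95% intervals for counting error) in 5 stroma and 2 perivascular clusters (y axis), for each library with at least 30 cells in the cluster. Pericytes reached 31.8 and 25 for Col4a1, and Col4a4 was low in stroma cluster 0 at 0.669 and 0.340.

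Between the libraries, the summed collagen level differed little in 5 of the 6 classes: the log2 ratio of DEHP_MLT over MLT was 0.01 in stroma, -0.17 in perivascular cells, -0.08 in endothelium, -0.09 in granulosa cells and -0.20 in surface cells. In germ cells it was -0.62, from 5.37 (5.21 to 5.53) to 3.50 (3.44 to 3.57). Germ cells had a median of 10844 UMIs in MLT and 74940 in DEHP_MLT, and their summed granulosa markers stood at 1.29 and 0.627 and their stroma markers at 1.04 and 0.868; the part of these in the collagen difference was not tested. Adding the mixed cluster led by germ genes to the germ cells gave a log2 ratio of -0.01. That cluster held 9 MLT and 297 DEHP_MLT cells, so the step changed almost only the DEHP_MLT side. Its collagens summed to 10.5 in DEHP_MLT, and its mean granulosa marker level was 0.194 of that in the highest granulosa cluster.

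A single collagen was called where its levels were at least 1.5-fold apart, its 95% intervals did not overlap and its level reached 0.1 in either library. In stroma 30 collagens reached the minimum; 4 were called higher in MLT, where 8.16% of all genes were, and 0 higher in DEHP_MLT, where 0.981% were. In perivascular cells 6 of 28 were called higher in MLT (background 8.19%) and 0 in DEHP_MLT (3.64%). Endothelium gave 2 of 16 higher in MLT (8.89%) and 0 in DEHP_MLT (1.61%), and granulosa cells 2 of 21 (7.43%) and 0 (1.12%). Surface cells gave 2 of 19 higher in MLT (9.15%) and 2 in DEHP_MLT (1.25%), and germ cells 7 of 13 higher in MLT (6.08%) and 0 in DEHP_MLT (0.653%). The median log2 ratio of the collagens lay near that of all genes in stroma (-0.10 and -0.12), endothelium (-0.10 and -0.12), granulosa cells (-0.10 and -0.11) and surface cells (-0.11 and -0.16). It lay lower in germ cells (-0.66 and -0.12) and perivascular cells (-0.35 and -0.09). Over the 6 classes this made 23 calls higher in MLT and 2 higher in DEHP_MLT, and 11 and 4 once the median gene was set to the same level in both libraries. Of these 25 calls, 1 was made under all 13 alternatives to the processing.

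**Figure D5:**
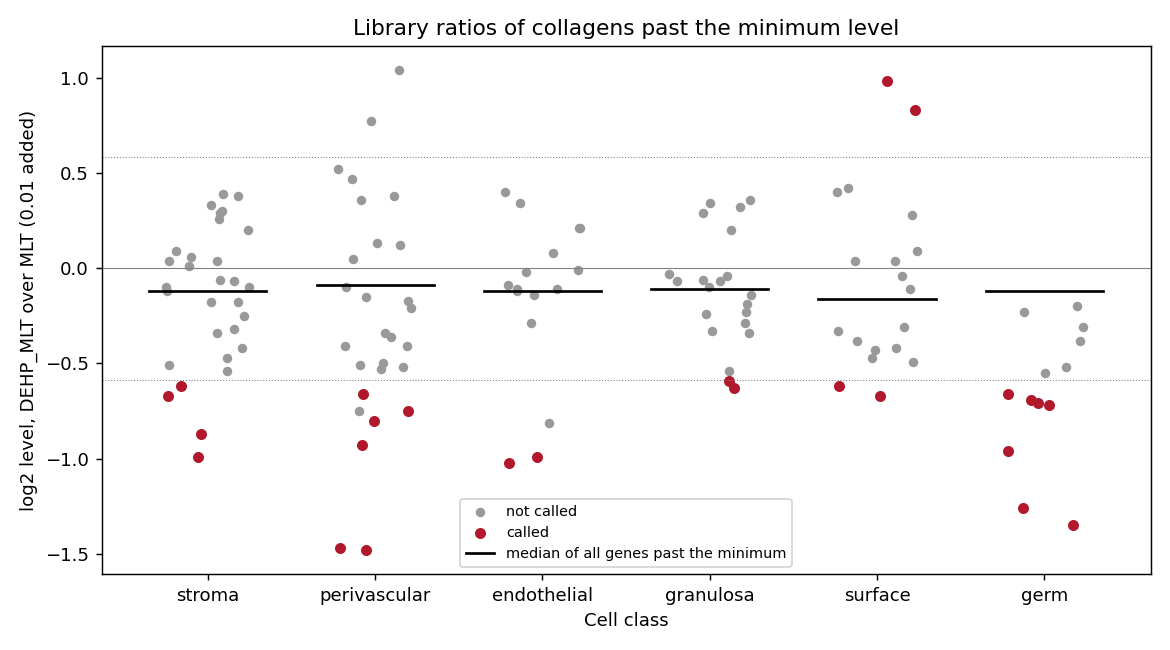
Log2 ratio of DEHP_MLT over MLT (y axis, 0.01 added to each level) for every collagen past the minimum in each cell class (x axis); red points were called, dotted lines mark 1.5-fold and black bars the median of all genes. Called collagens lay below 0 except Col1a1 and Col14a1 in surface cells, and germ cells had 7 of 13 called higher in MLT.

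The called collagens of stroma were Col12a1, Col18a1, Col11a1 and Col6a6. Col12a1, a FACIT collagen, was at 1.48 and 0.925, a log2 ratio of -0.67. It was also lower in DEHP_MLT within the clusters that both libraries filled, with 0.700 and 0.501 in cluster 0 and 1.34 and 0.885 in cluster 6. Col18a1 was at 0.347 and 0.170, a log2 ratio of -0.99, with 0.470 and 0.357 in cluster 0 and 0.328 and 0.155 in cluster 6. Stroma was thus close to the 0.293 and 0.205 of erythroid cells, and markers of classes rich in Col18a1 were also lower in DEHP_MLT stroma: the 7 endothelial markers summed to 0.516 and 0.339 and the 7 granulosa markers to 4.72 and 3.59, with none at 0. Their part in the Col18a1 difference was not tested. In cluster 0 the intervals of both genes overlapped between the libraries, and in cluster 6 they did not. Without the clusters that held over 90% of their cells in 1 library, the log2 ratio was -0.85 for Col18a1 and -0.54 for Col12a1, which was then no longer called. Col6a5, not called in the joined class (0.422 and 0.302), had intervals apart in clusters 0 and 6. It was at 1.56 (1.4 to 1.73) and 0.634 (0.521 to 0.764) in cluster 0. In cluster 6 it was at 0.263 (0.225 to 0.307) and 0.149 (0.121 to 0.182). Col1a1 went the other way, at 23.2 and 30.1 in cluster 0 and 13.2 and 18.3 in cluster 6.

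In perivascular cells Col4a4 (0.817 and 0.465, log2 ratio -0.80) and Col5a2 (2.86 and 1.81, log2 ratio -0.66) were called higher in MLT, as were Col6a4, Col6a5, Col6a6 and Col11a1. Smooth muscle cells, which held more Col5a2 than pericytes, were fewer in DEHP_MLT; within smooth muscle cells Col5a2 was at 3.77 (3.49 to 4.06) and 3.26 (2.86 to 3.69) and within pericytes at 1.07 and 0.884, with overlapping intervals in each. Col4a4 within smooth muscle cells was at 0.780 (0.657 to 0.920) and 0.294 (0.184 to 0.445), which did not overlap, and within pericytes at 0.890 (0.707 to 1.11) and 0.575 (0.446 to 0.730), which did. Within smooth muscle cells the intervals of Col6a5 (0.354 and 0.120) and Col11a1 (0.493 and 0.227) were also apart. Those of Col6a4 (0.482 and 0.294) and Col6a6 (0.498 and 0.360) overlapped there. Pericytes held less of each of these 4, at 0.044 to 0.143. In surface cells Col1a1 was at 0.696 and 1.24, a log2 ratio of 0.83, but both values lay below the 3.60 and 1.99 of erythroid cells. Col6a2 was called higher in MLT in surface cells (4.72 and 2.96, log2 ratio -0.67) and in granulosa cells (1.10 and 0.709, log2 ratio -0.63); without the granulosa cluster that was almost wholly of the MLT library the second was -0.40 and not called. That cluster passed 5 granulosa and 5 surface markers. The granulosa values lay below the 1.32 and 0.788 of erythroid cells. The 6 surface markers summed to 3.78 and 1.01 in granulosa cells, none at 0, and their part in this difference was not tested. Col11a1 and Col8a1, not called in the joined class, had intervals apart within the granulosa cluster that both libraries filled. Col11a1 was there at 0.456 (0.423 to 0.49) and 0.252 (0.224 to 0.281), a log2 ratio of -0.83. Col8a1 was at 0.663 (0.623 to 0.704) and 0.431 (0.395 to 0.469), a log2 ratio of -0.61. Col1a1 went the other way there, at 0.569 (0.532 to 0.608) and 0.746 (0.698 to 0.796).

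The genes that make, cut, bind and sense collagen were followed beside it. Of 32 folding and processing genes, 27 reached the minimum in stroma and 0 were called in either direction, against 8.16% of all genes higher in MLT and 0.981% higher in DEHP_MLT; Ppib, a prolyl isomerase of collagen folding, was the most abundant at 7.92 and 7.68. Of the 26 that reached the minimum in some class of both libraries, 14 were highest in stroma in both, against 8.14% of all genes. Pcolce, which enhances removal of the collagen propeptide, was at 2.72 and 3.52 in stroma, and P4ha1, a prolyl hydroxylase chain, at 0.540 and 0.420; neither was called. In perivascular cells 2 of 27 were called higher in DEHP_MLT and 1 higher in MLT (backgrounds 3.64% and 8.19%), in granulosa and germ cells 1 each higher in MLT (7.43% and 6.08%), and in surface cells 1 higher in DEHP_MLT (1.25%).

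Among 13 degradation genes past the minimum in stroma, Mmp2, the gelatinase, led at 3.82 and 4.35, and 1, Mmp19, was called higher in MLT at 0.104 and 0.0560. Of 7 receptors past the minimum there, Itgb1, the integrin beta chain shared by the collagen-binding integrins, was called higher in MLT at 4.18 (4.10 to 4.25) and 2.74 (2.68 to 2.81). Itgb1 was also called higher in MLT in endothelium, granulosa cells and surface cells, with log2 ratios of -0.61, -0.61 and -0.64. Among 23 fibril-binding genes, Sparc, a collagen-binding matrix protein, led at 27 and 35.5, and Dpt, dermatopontin, was the 1 called, higher in MLT at 0.425 and 0.262. These calls in stroma stand beside the same 8.16% of all genes. In perivascular cells 5 of 24 fibril-binding genes were called higher in MLT (background 8.19%) and 1 higher in DEHP_MLT (3.64%). Smooth muscle cells were 153 of the 247 perivascular cells in MLT and 56 of 160 in DEHP_MLT. The part of this shift in the fibril-binding calls was not tested. Of 13 basement membrane partners, 0 were called in stroma; Nid1, nidogen, which links laminin to type IV collagen, was the most abundant at 3.70 and 2.62 and their median log2 ratio was -0.30, beside -0.12 for all genes. In endothelium 5 of the 16 basement membrane partners past the minimum in some class had their highest level in both libraries (11.4% of all genes), as did Col4a1, Col4a2 and Col15a1. Of the 11 past the minimum in endothelium, 2 were called higher in MLT (background 8.89%).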

How the data were processed

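The deposited tables hold raw UMI counts per gene and barcode; per the labels' protocols they come from a 10x Genomics 3′ library, and per the submitters' processing notes Cell Ranger, Seurat 4.2.0 and the mm9 build were used. Only the 21018 genes in both tables were analysed. Barcodes needed 500 genes and no more than 20% of UMIs from mitochondria, which left 5199 and 4819; Scrublet called 0 and 3 doublets (0.0623%), so doublets were not effectively removed, and 10015 cells entered. Cells were clustered with scanpy 1.11.5 (2000 variable genes without collagens, 30 components, 15 neighbours, Leiden resolution 0.5). A cluster was named when at least 3 markers reached 25% of its cells and a log2 fold of 1.0; the rules for conflicting names were settled after seeing the data. The smooth muscle cluster had as many stroma as perivascular markers and took the class of its leading genes. Mixed and unnamed clusters, including 607 low-UMI MLT barcodes, were left out. UMIs were summed per class and library, and log2 ratios use level + 0.01. The call rule was tested on simulated data with counting error only. Variation between animals or libraries and free RNA had no part in that simulation. The members and lists were chosen with earlier results of these data known. Named in the text were collagens of at least 1 per 10,000 in a class of both libraries, those called where a level reached 0.5, and partner chains. The most abundant member and up to 4 with extreme ratios in stroma stand for each partner list, and other genes were chosen after their values were seen. Alternatives covered clustering, depth, gates, weights, scaling and minimums. The shallowest barcode held 2031 UMIs in MLT and 6923 in DEHP_MLT. No genome of the mm9 build was used, so the promoter windows are on GRCm38.p6 and were not matched to coordinates of the authors' counting, and the 3′ assay does not read them.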

Additional observations from a re-analysis of the deposited data

Results flagged for a closer look

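Col10a1, a collagen of growth cartilage, was listed in the MLT table only and so entered no comparison. It had 8 UMIs in 8 cells, above the 3 counts that a count of 0 allows, and its level in the DEHP_MLT library was not analysed here.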

How the results depend on the processing

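Of the 10 alternatives run for the class of highest level, a minimum of 0.5 left 17 of 19 collagens past the minimum, and the others kept the class of 26 to 30 of the 30 collagens. Only Col1a1 in surface cells, 1 of the 25 calls, was made under all 13 alternatives. With a minimum of 0.5, collagens under 0.5 in both libraries could not be called, whatever their ratio. The summed log2 ratios below are DEHP_MLT over MLT, and the cause of each shift was not tested. In stroma (0.01) the sum was -0.03 with each library clustered on its own, -0.01 with the per-cell marker gate, -0.04 with equal weight per cell, -0.03 with cells thinned to 2000 UMIs, 0.13 with the median gene set level, 0.0 without the most abundant collagen and 0.07 without clusters of over 90% of cells in 1 library. In perivascular cells (-0.17) it was -0.12 with collagens kept among the variable genes, at Leiden resolution 1.0 and without the most abundant collagen, and 0.30 with libraries clustered apart. It was -0.04 there with the gate, -0.22 with equal weight and with thinning, and -0.07 with the median gene set level. In endothelium (-0.08) it was 0.02 with thinning and 0.04 with the median gene set level. In granulosa cells (-0.09) it was -0.18 with the gate, -0.05 with thinning, 0.02 with the median gene set level and -0.19 without the 1-library clusters. In surface cells (-0.20) it was -0.25 with collagens kept, 0.10 with the gate, -0.05 with equal weight, -0.04 with thinning, -0.03 with the median gene set level and -0.26 without the most abundant collagen. In germ cells (-0.62) it was -0.73 with libraries clustered apart, -1.62 with the gate, -0.99 with equal weight, -1.04 with thinning, -0.50 with the median gene set level and -0.01 with the mixed germ-led cluster added. Calls higher in MLT (23) numbered 41 with the gate, 11 with the median gene set level, 5 with a minimum of 0.5 and 12 with 0.1 added before the ratio. Calls higher in DEHP_MLT (2) numbered 9 with libraries clustered apart, 4 with thinning and with the median gene set level, and 1 with a minimum of 0.5 and with 0.1 added. In germ cells Col6a3 reversed to 0.47 with thinning, and Col6a1 and Col18a1 to 0.06 and 0.08 with the mixed cluster added, none of them called. The last 2 alternatives, without the 1-library clusters and with the mixed cluster, were chosen after seeing the data. The mixed cluster added 9 MLT and 297 DEHP_MLT cells. No paired analysis was possible because each group is 1 library. Low collagens rest on few UMIs, and the intervals do not cover variation between animals.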
